A study of Mus musculus with 7 samples.

Results

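The genes described here are 281 genes of mouse chromosome 8 that start between 10 and 45 Mb, the neighbourhood of Kat6a, the gene that carries the epitope tag in this study. They are 281 of the 27179 genes in the deposited count table and were chosen by position and symbol. Kat6a itself, Fgfr1 and genes of the Vmn, Olfr, Zfp and Col families, which in this interval are Col4a1, Col4a2, Zfp42 and Zfp703, were left out by the rule. Another 900 genes of the table lie on chromosome 8 outside the members. The rule uses no read count, but the interval was proposed with results of these data known, so its values of V5 against wild type are given as a description.

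Tagged embryos were homozygous for a Flag-V5-BIO triple tag in frame at the carboxy-terminus of the Moz (Kat6a) locus, and wild-type embryos of the same C57BL/6 strain served as the negative control. The first and second pharyngeal arches of embryos at E10.5 were used for chromatin immunoprecipitation and sequencing (ChIP-seq) with an anti-V5 antibody. The antibody was used on 3 samples of tagged arches, called V5 here, and on 3 samples of wild-type arches, and tagged arches also gave 1 input library without antibody. The series describes homozygotes for the tagged allele as viable and fertile. The allele was made by homologous recombination in embryonic stem cells, and the strain of those cells is not given in the sources used here. Counts of precipitated DNA do not measure expression, so the tissue could not be checked against marker genes.

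KAT6A, also called MOZ, is a histone acetyltransferase of the MYST family that is needed for craniofacial and blood stem cell development. The wild-type chromatin has no V5 epitope, so reads found there show what the antibody and the beads recover without the tag. Comparing neighbours of a targeted locus shows whether reads differ locally around it as well as at the gene itself. The interval holds genes of many unrelated functions, among them the clustered defensin genes, which encode antimicrobial peptides, a group of ADAM protease genes and several very long genes.

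Promoter windows of 300 bases (250 before to 50 after an annotated start) were found in RefSeq, build GRCm38.p6, for 107 of the 281 members (38.1%). The 3 windows below belong to Thsd1, the only member within 2 Mb of Kat6a with an unadjusted p under 0.05, to Slc25a15, a near neighbour whose V5 libraries all lay below the wild-type libraries, and to Sox1ot, a transcript around the Sox1 gene with fewer reads in V5. Capitals mark the dinucleotide CG, which reads the same on both strands. The windows lie at chr8:22227053-22227352, plus strand, at chr8:22398228-22398527, minus strand, and at chr8:12385521-12385820, plus strand.
Thsd1: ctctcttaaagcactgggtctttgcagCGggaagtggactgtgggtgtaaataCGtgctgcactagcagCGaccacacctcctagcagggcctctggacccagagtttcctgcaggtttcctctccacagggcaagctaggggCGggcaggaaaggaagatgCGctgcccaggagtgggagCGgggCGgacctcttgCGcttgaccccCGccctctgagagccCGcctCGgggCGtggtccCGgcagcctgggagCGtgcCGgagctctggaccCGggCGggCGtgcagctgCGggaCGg
Slc25a15: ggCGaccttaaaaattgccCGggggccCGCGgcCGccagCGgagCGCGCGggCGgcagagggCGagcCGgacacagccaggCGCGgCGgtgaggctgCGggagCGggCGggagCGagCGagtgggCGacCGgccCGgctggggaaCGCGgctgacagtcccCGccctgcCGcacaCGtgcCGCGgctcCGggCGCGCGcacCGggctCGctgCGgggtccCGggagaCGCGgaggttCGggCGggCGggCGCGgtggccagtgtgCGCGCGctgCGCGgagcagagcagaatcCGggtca
Sox1ot: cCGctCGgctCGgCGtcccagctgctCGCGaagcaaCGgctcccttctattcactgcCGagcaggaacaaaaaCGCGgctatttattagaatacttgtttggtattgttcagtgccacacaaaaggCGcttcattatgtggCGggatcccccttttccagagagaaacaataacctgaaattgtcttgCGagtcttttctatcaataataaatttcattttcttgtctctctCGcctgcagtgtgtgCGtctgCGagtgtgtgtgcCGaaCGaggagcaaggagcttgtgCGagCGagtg
They hold 20, 51 and 20 CG respectively, and each is the window of its gene with the most CG. Taken in that way, the median was 14 over the 18458 genes with a window. Over all 32851 windows of the table the median was 7, and 94.6% of them hold at least 1. The counts are totals over a gene, so they cannot place reads inside or outside these windows.

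The other set of sequences bears on how far counts in the defensin cluster can be assigned to single genes. The windows of Defa35 (chr8:21064788-21065087, plus strand) and Defa36 (chr8:21427178-21427477, plus strand) are identical at 294 of 300 bases, and capitals mark the 6 bases that differ.
Defa35: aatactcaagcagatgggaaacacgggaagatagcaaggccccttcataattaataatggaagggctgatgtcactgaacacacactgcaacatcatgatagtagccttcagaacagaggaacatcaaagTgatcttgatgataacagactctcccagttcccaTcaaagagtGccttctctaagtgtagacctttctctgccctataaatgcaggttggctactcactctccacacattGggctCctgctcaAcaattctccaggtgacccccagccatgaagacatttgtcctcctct
Defa36: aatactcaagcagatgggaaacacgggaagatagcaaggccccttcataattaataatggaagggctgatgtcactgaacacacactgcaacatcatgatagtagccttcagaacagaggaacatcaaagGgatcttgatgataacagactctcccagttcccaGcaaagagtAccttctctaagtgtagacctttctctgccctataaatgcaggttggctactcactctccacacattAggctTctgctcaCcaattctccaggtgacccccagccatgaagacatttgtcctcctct
Of 120 pairs among the 16 Defa genes with a window, compared base by base without gaps, 5 were identical over all 300 bases, Defa21 with Defa22 among them. A read that lies within such an identical stretch cannot be assigned to 1 copy by its sequence.

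The 7 libraries held 806648 to 3488745 counts, and V5 replicate 1 was the shallowest. At that depth a gene with 0 counts in V5 replicate 1 could still have had 3.72 CPM (counts per 1e6 counts of the library), from counting error alone. Of the 281 members, 169 had enough counts to be tested, 15 had 0 counts in all 7 libraries and 44 had fewer than 10 counts in all 7 together. No label says whether replicates came from separate embryos or litters, or whether embryos were pooled, so a p-value here reflects only how far these libraries scatter, which could be technical scatter.

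No member passed the edgeR test of V5 against wild type after correction. With edgeR's quasi-likelihood test and Benjamini-Hochberg adjustment over all 14575 genes tested, 0 members were called higher and 0 lower, as in the whole table (0% of tested genes in each direction), and no adjusted p fell below 0.978. Without adjustment, at p under 0.05, there were 6 members with more reads in V5 (3.55% of those tested, against 2.85% of all tested genes) and 4 with fewer (2.37% against 1.34%). DESeq2, which tested 263 members, called 0 in either direction, as over all 24444 genes it tested. Its unadjusted p was under 0.05 for 7 members with more reads (2.66%, against 3.09% of all) and 8 with fewer (3.04%, against 1.2%). The limma-voom fit of the 169 members called 0 higher, against 0.00686% of all tested genes (1 gene), and 1 lower, Sgcz (0.592%, against 0.0206% or 3 genes). Unadjusted, it had 2 higher (1.18%, against 1.18%) and 4 lower (2.37%, against 1.21%). The V5 libraries lay wholly above the wild-type libraries in CPM in 4 tested members (2.37%, against 4.83% of all tested genes) and wholly below in 10 (5.92%, against 5.27%). With so few members in each count, these shares are not a result about the members.

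The tested genes within 2 Mb of Kat6a went in both directions between V5 and wild type. Of the 33 tested members within 2 Mb, 14 had a positive and 19 a negative log2 fold change, with a median of -0.04. The median was -0.05 over all 169 tested members, 0.05 over the other 564 tested genes of chromosome 8 and 0.03 over all tested genes. On the side before Kat6a (lower coordinates) 7 of 17 tested members within 1 Mb were positive, and on the side after it 2 of 6. Without Ank1, 1 of 5 on the side after it was positive, with a median of -0.34. The summed CPM of the 8 members there without Ank1 had a ratio of V5 to wild type of 0.863, with overlapping groups. Summed over the 77 members within 2 Mb other than Ank1, V5 replicates 1 to 3 held 1356, 1311 and 1463 CPM, wild-type replicates 1436, 1514 and 1437, and the input 1521. The groups overlapped, with a ratio of the means of 0.942.

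**Figure D1:**
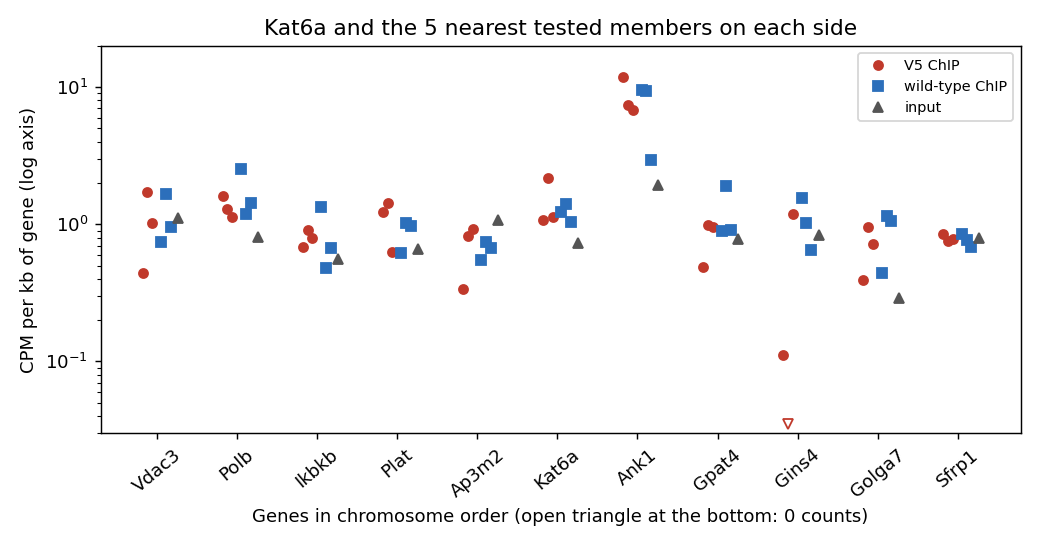
Reads per kb of gene (CPM per kb, log axis) in Kat6a and the 5 nearest tested members on each side, in chromosome order, with 1 symbol per library. Ank1 stands above all its neighbours in the 6 ChIP libraries, both groups included, as it does in input DNA.

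On the side before Kat6a the closest gene was Ap3m2 (22787354 to 22807292 in mm10), which encodes a subunit of the AP-3 vesicle adaptor. It had 6.20, 14.9 and 17.0 CPM in V5, 10.1, 13.6 and 12.4 in wild type, with 19.8 for input DNA. The V5 range enclosed the wild-type range, and the log2 fold change was 0.13 (SE 0.68). Plat, the tissue plasminogen activator, had 31.0, 36.0 and 15.8 CPM in V5 versus 15.5, 25.6 and 24.4 in wild type, with log2 fold change 0.35 (SE 0.53). Ikbkb, a kinase that activates NF-kappaB, stood at -0.02 (SE 0.45). Polb, the DNA polymerase of base excision repair, stood at -0.33 (SE 0.44), and wild-type replicate 1 was its highest library with 64.4 CPM. Vdac3, a channel of the mitochondrial outer membrane, stood at -0.04 (SE 0.62). In all 5 of these genes the groups overlapped.

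On the side after Kat6a, beyond Ank1, came Gpat4, an acyltransferase of glycerolipid synthesis. It had 17.4, 35.1 and 34.1 CPM in V5 against 31.8, 67.0 and 32.3 in wild type, log2 fold change -0.55 (SE 0.46). Gins4, a subunit of the replicative helicase, had 1, 0 and 43 counts in V5 versus 22, 15 and 18 in wild type. Its log2 fold change of -1.08 (SE 0.94) had the widest error of these neighbours, and moved to -0.55 without V5 replicate 2 and to -4.19 without V5 replicate 3. Golga7, which acts in protein palmitoylation, stood at -0.34 (SE 0.70). Sfrp1, a secreted Wnt antagonist, was nearly the same in all libraries, with 32.2, 29.0 and 29.8 CPM in V5, 32.6, 29.4 and 25.95 in wild type, with 30.4 for input DNA.

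Other members within 2 Mb are given for their p or for groups that did not overlap. Thsd1, a thrombospondin-domain protein of endothelial cells (22220938 to 22262957), had 53.3, 69.4 and 35.6 CPM in V5, 10.1, 30.1 and 37.1 in wild type, with 30.1 for input DNA. V5 replicate 3 lay below wild-type replicate 3, so the groups overlapped, and the log2 fold change stood at 1.04 (SE 0.47, with an edgeR adjusted p = 0.978). Slc25a15, the mitochondrial ornithine carrier, had 18.6, 10.54 and 13.4 CPM in V5 against 20.2, 21.9 and 19.96, log2 fold change -0.52 (SE 0.60). Ido1, which degrades tryptophan, had 8.68, 7.91 and 10.04 CPM in V5 against 31.8, 13.6 and 15.6. The log2 fold change stood at -1.15 (SE 0.66), and in both Slc25a15 and Ido1 every V5 library lay below every wild-type library. That held in 6.06% of the tested members within 2 Mb, against 5.27% of all tested genes, so it is not a result about these neighbours.

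Among members of at least 10 kb, Ank1 held the most reads per length in 5 of the 6 ChIP libraries, tagged and wild-type, and ranked 3rd in wild-type replicate 3, behind Gm15319 and 6820431F20Rik. Ank1 encodes ankyrin 1, which links the membrane skeleton of red blood cells to membrane proteins, and begins 0.0316 Mb after the end of Kat6a (22974836 to 23150501). It held 1690, 1489 and 3951 counts in the tagged libraries 1 to 3, 2173, 2202 and 1291 in the wild-type ones, and 1193 in the input. In CPM these were 2095, 1308 and 1202 in V5, 1686, 1659 and 515 in wild type, with 342 for input DNA. All 6 ChIP libraries lay above the input, by 3.52 to 6.13 times in V5 and by 1.51 to 4.93 times in wild type. Wild-type replicate 3 was the lowest ChIP library and V5 replicate 1 the highest.

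Between V5 and wild type Ank1 did not differ beyond the spread of the libraries. Its means were 1535 ± 488 CPM in V5 versus 1287 ± 668 in wild type (SD, n = 3), log2 fold change 0.30 (SE 0.59) with an edgeR adjusted p of 0.992. The sign turned without V5 replicate 1 (-0.06) and also when wild-type replicate 3 was left out (-0.09). The wild-type libraries, which have no V5 epitope, thus also lay above the input.

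Per length, Ank1 was among the densest genes of the whole table in the ChIP libraries. It had 11.9, 7.45 and 6.85 CPM per kb of gene in V5, 9.60, 9.45 and 2.94 in wild type, with 1.95 for input DNA. The median of the 169 members of at least 10 kb was 0.754 to 0.931 in the 7 libraries. Among the 14225 genes of at least 10 kb with a symbol, Ank1 ranked 7th to 11th in 5 ChIP libraries, 21st in wild-type replicate 3 and 449th in the input. By comparison Kat6a had 1.08, 2.17 and 1.14 CPM per kb in V5, 1.23, 1.39 and 1.04 in wild type, with 0.726 for input DNA. The microRNA genes Mir486 and Mir3107 lie inside Ank1 and had 0 counts in every library, as had 12 of the 15 members that lie wholly inside another gene. Deposited counts are totals per gene, so the part of Ank1 that holds these reads is not known here.

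Ank1 alone made up 26.4% to 60.7% of the counts of the 78 members within 2 Mb in the ChIP libraries, and 18.4% in the input. With it, that sum was 3451, 2618 and 2665 CPM in V5 versus 3122, 3173 and 1952 in wild type, a ratio of means of 1.06 with overlapping groups. Without wild-type replicate 3 the ratio was 0.925.

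Along the chromosome, members from 2 to 10 Mb before Kat6a had mostly positive fold changes and members after it mostly negative ones. The interval was divided into 5 Mb stretches, a division chosen after the values were seen. From 10 to 15 Mb the median log2 fold change of the tested members was 0.14 (24 of 42 positive), and from 15 to 20 Mb it was 0.46 (8 of 8 positive). Around Kat6a, from 20 to 25 Mb, it was -0.02 (18 of 39 positive). It was -0.10 from 25 to 30 Mb (11 of 28), -0.13 from 30 to 35 Mb (5 of 22), -0.14 from 35 to 40 Mb (2 of 12) and -0.19 from 40 to 45 Mb (6 of 18). None of these genes passed the edgeR test, over all genes 52.5% of the tested genes were positive, and the lean itself was not tested.

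**Figure D2:**
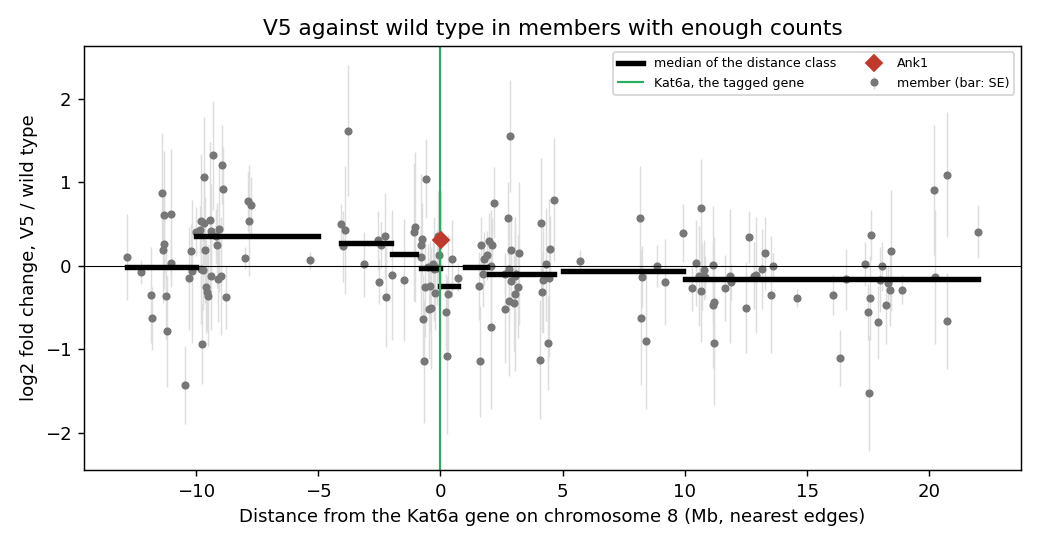
Log2 fold change of V5 over wild type in the 169 tested members against the distance from Kat6a (Mb, nearest edges); points with SE bars are genes, black bars are medians of distance classes, the diamond is Ank1. Medians lie at 0.35 from 5 to 10 Mb before Kat6a, at -0.02 and -0.24 within 1 Mb before and after it, and at -0.17 more than 10 Mb after it.

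Summed reads of all members, tested or not, did not overlap between the groups in 3 of 10 distance classes, none of them next to Kat6a. No share of such classes was computed elsewhere in the genome, so this count is not a result about the members. For 5 Mb stretches of all autosomes, V5 lay wholly above wild type in 6.54% and wholly below in 9.28%. In the distance class from 5 to 10 Mb before Kat6a the 38 members held 3146, 3493 and 3111 CPM in V5, 3043, 2935 and 3059 in wild type, with 2486 for input DNA. Every V5 library was higher than every wild-type library, with a ratio of means of 1.08. More than 10 Mb after Kat6a the 62 members held 3417, 3834 and 3804 CPM in V5, 4188, 4398 and 4441 in wild type, with 3420 for input DNA. Every V5 library was lower than every wild-type library, and the ratio was 0.849. On the opposite side, more than 10 Mb before Kat6a, the 24 members held 854, 897 and 900 CPM in V5 versus 1034, 922 and 968 in wild type, and V5 was again wholly lower, with a ratio of 0.907. The classes before Kat6a whose groups did not overlap thus went in both directions, and a link with the side of Kat6a was not tested.

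The lowest ratio of any 5 Mb stretch in the interval was 0.812, from 35 to 40 Mb, where V5 held 1758, 1893 and 1957 CPM, wild type 2093, 2386 and 2429 and the input 1750. The very long gene Sgcz lies there, and without it the ratio was 0.901, with V5 still below wild type in every library. Of 474 stretches of 5 Mb over all autosomes, those of this interval included, V5 lay wholly above wild type in 6.54% and wholly below in 9.28%, and the middle 95% of the ratios ran from 0.869 to 1.16. These 474 had at least 5 tested genes each and sum all genes, with those left out by the rule. The values printed here for the interval sum members only. In the interval 0 of 7 stretches lay wholly above and 2 wholly below, those from 30 to 35 Mb and from 35 to 40 Mb. Summed over whole chromosomes the ratio was 1.00 for chromosome 8, 10th of the 19 autosomes, whose range was 0.950 to 1.03.

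**Figure D3:**
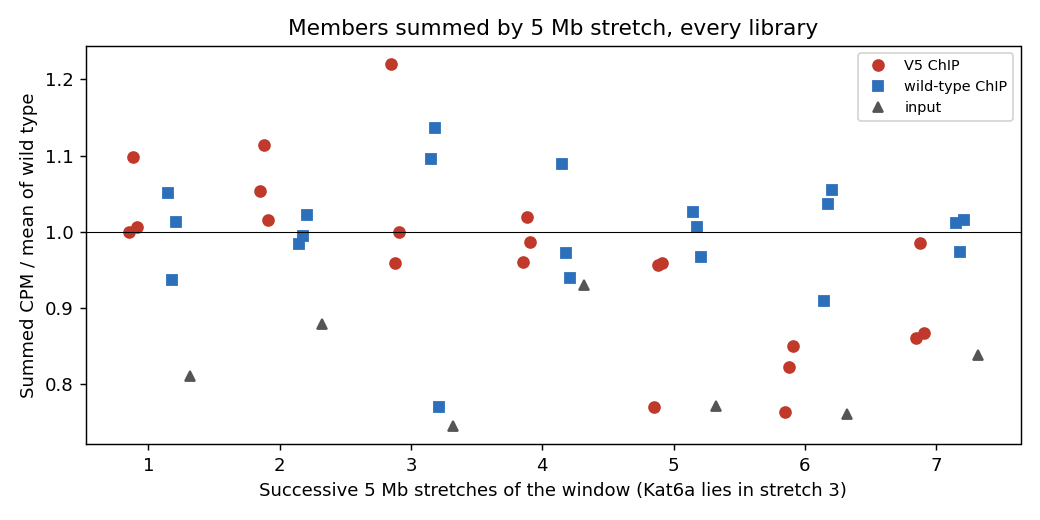
Summed CPM of the members in 7 successive 5 Mb stretches from 10 to 45 Mb, divided by the mean of the 3 wild-type libraries, with 1 symbol per library. The V5 libraries lie below every wild-type library in stretches 5 and 6, and Kat6a lies in stretch 3, where V5 replicate 1 and wild-type replicate 3 stand apart and where Ank1 lies.

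Over all 281 members the V5 libraries held 13219, 13332 and 12929 CPM, the wild-type libraries 13815, 13735 and 12840 and the input 10880, a ratio of V5 to wild type of 0.977. Without Ank1 the groups no longer overlapped, with 11124, 12024 and 11727 CPM against 12129, 12077 and 12325, and the ratio was 0.955. They did not overlap either without the members that overlap another gene (0.969). Sums over whole autosomes also did not overlap between the groups for chromosomes 1, 10, 13, 16 and 18, with ratios of 0.976 to 0.982. Across 5 Mb stretches of all autosomes the median ratio was 0.988. Groups that do not overlap are thus not particular to the members. Without the 7 members longer than 300 kb the ratio of the members was 1.01. The 7 long genes, among them Csmd1, Sgcz, Dlgap2 and Unc5d, held 35.3% to 41.5% of the members' counts in the 7 libraries. Ratios also differed by length over the whole table, with 0.980 for genes over 100 kb and 1.14 for genes of 3 to 10 kb. In both of those sets the groups did not overlap. Members of these lengths had ratios of 0.983 and 0.893, with overlapping groups.

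The long genes differed in how closely V5 and wild type matched. Csmd1, a complement-regulating membrane protein of neurons (15892538 to 17535385), had 1428, 1616 and 1458 CPM in V5, 1460, 1489 and 1466 in wild type, with 1223 for input DNA, log2 fold change 0.06 (SE 0.10). Dlgap2, a scaffold protein of synapses, stood at 0.09 (SE 0.13), and Unc5d, a netrin receptor that guides axons, at 0.05 (SE 0.13). Sgcz, zeta-sarcoglycan (37517840 to 38661705), had 917, 996 and 1118 CPM in V5, 1186, 1391 and 1474 in wild type, with 1092 for input DNA. All 3 V5 libraries of Sgcz lay below the wild-type libraries, and the log2 fold change stood at -0.39 (SE 0.11, edgeR adjusted p = 0.978, and 0.0335 with limma-voom). The V5 libraries lay on both sides of the input and the wild-type libraries above it.

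Of members with more reads in V5, the smallest p went to Fbxo25, Lsm1, Thsd1, Arhgef10 and Myom2. Fbxo25, a substrate receptor of a ubiquitin ligase, had 65.7, 76.4 and 25.9 CPM in V5 versus 31.8, 15.1 and 26.8 in wild type. V5 replicate 3 lay within the wild-type range, and the log2 fold change was 1.21 (SE 0.47). Lsm1, part of the complex that removes mRNA caps, had 33.5, 33.4 and 11.6 CPM in V5 versus 13.2, 9.04 and 5.19 in wild type, with 19.2 in the input. Again V5 replicate 3 fell inside the wild-type range, and the log2 fold change was 1.56 (SE 0.67). Arhgef10 stood at 0.77 (SE 0.35). Myom2, a protein of the muscle M-band, stood at 0.73 (SE 0.33), with 69.4 to 105 CPM in V5 versus 36.5 to 66.3 in wild type, and its groups alone among these 5 did not overlap. None of the 5 passed (edgeR adjusted p = 0.978 for each).

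Among members with fewer reads in V5 the smallest p belonged to Sgcz, Gm6213, Sox1ot, Cnot7 and Pcid2, and in all 5 every V5 library lay below every wild-type library. A choice by small p favours such groups, so this is not a result about the members. V5 lay wholly below in 5.92% of tested members, against 5.27% of all tested genes. Gm6213, a predicted gene, had 37.2, 40.4 and 40.8 CPM in V5 versus 113, 75.3 and 72.3 in wild type, log2 fold change -1.10 (SE 0.33). Its input value of 67.4 CPM lay between the groups. Sox1ot, which overlaps the neural transcription factor gene Sox1, had 13.6, 11.4 and 38.3 CPM in V5, 45.8, 82.9 and 53.5 in wild type, with 35.5 for input DNA. The log2 fold change stood at -1.43 (SE 0.46), and V5 replicate 3 was above the input while replicates 1 and 2 were below. Cnot7, a deadenylase of mRNA, stood at -1.52 (SE 0.70), and Pcid2, which acts in mRNA export, at -0.94 (SE 0.48). Both overlap another gene of the table, so their counts are uncertain. None of the 5 passed (edgeR adjusted p = 0.978 for each).

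By function the members showed no group in which a gene passed the edgeR test. Sgcz, of the group of centrosome, vesicles and cytoskeleton, passed with limma-voom only (adjusted p = 0.0335). The groups share genes, Tnks among them, so their counts are not of separate genes. Genes of DNA replication, repair and the cell cycle had 10 members, all tested, of which 2 were positive and 8 negative, with a median log2 fold change of -0.18 against 0.03 over all tested genes. Mcph1, a regulator of chromosome condensation whose loss causes microcephaly, had 161, 180 and 151 CPM in V5 versus 131, 81.4 and 142 in wild type. Every V5 library of Mcph1 lay above every wild-type library, with log2 fold change 0.50 (SE 0.24). Wrn, a helicase of genome maintenance, stood at -0.27 (SE 0.27), and Tnks, a poly-ADP-ribose polymerase of telomeres and of Wnt signalling, at -0.20 (SE 0.22).

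Chromatin and transcription genes had 12 members, of which 9 were tested, 4 positive and 5 negative, with a median of -0.05. Besides Cnot7, Ing1, a reader of histone methylation, stood at 0.60 (SE 0.76), Tfdp1, the partner of E2F factors, at -0.36 (SE 0.60), and Rbpms, an RNA-binding regulator, at -0.13 (SE 0.25). Without V5 replicate 1 Tfdp1 stood at -0.011 and without V5 replicate 3 at -1.41, and Ing1 ranged from 0.056 to 0.91 when single libraries were left out. Signalling genes had 15 members, of which 11 were tested, 6 positive and 5 negative, with a median of 0.01. The atypical cadherin gene Fat1 stood at 0.41 (SE 0.32), the TAM receptor ligand gene Gas6 at 0.42 (SE 0.56) and the insulin receptor substrate gene Irs2 at -0.35 (SE 0.57), which ranged from -0.87 to -0.049 when single libraries were left out.

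Metabolic and transport genes had 20 members, of which 17 were tested, 5 positive and 12 negative, with a median of -0.25. Slc7a2, a transporter of cationic amino acids, stood at -0.68 (SE 0.44). Genes of the centrosome, vesicles and cytoskeleton had 14 members, all tested, 5 positive and 9 negative, with a median of -0.06. Ckap2, a spindle protein, stood at -1.15 (SE 0.74), and Tacc1, a centrosomal protein, at 0.75 (SE 0.43). The 3 tested of 4 coagulation genes were F10, the protease factor X, at -0.04 (SE 0.66), its paralog Proz at 0.54 (SE 0.80), and Plat.

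Of 12 members that encode ADAM proteases, most of which are made in the testis, 6 were tested, 5 positive and 1 negative, with a median of 0.19. The broadly expressed Adam9 stood at 0.30 (SE 0.33), Adam18 at 0.25 (SE 0.33), Adam32 at 0.12 (SE 0.29) and Adam34 at 1.09 (SE 0.75). Adam34 had 47 of its 90 V5 counts in V5 replicate 1, and without that library it stood at -0.41.

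The defensin genes, 31 of the Defa and 24 of the Defb type, held few reads. The Defa genes together had 22, 23 and 137 counts with the tag, 37, 41 and 103 without it, with 217 for input DNA, or 20.2 to 41.7 CPM against 28.7 to 41.1. The Defb genes had 82, 89 and 228 counts with the tag, 110, 129 and 158 without it, with 234 for input DNA, or 69.4 to 102 CPM against 63.1 to 97.2. In both families the groups overlapped. Only 4 of the 55 were tested. Defb39 stood at 1.62 (SE 0.78), Defb1 at 0.40 (SE 0.83) and Defa33 at -0.17 (SE 0.73). The deposited length of Defa33 was 26466 bp where RefSeq gives a span of 982 bp, so what was counted under this gene is uncertain. The pseudogene Defa-ps13 had 3, 11 and 12 counts in V5 versus 0, 4 and 23 in wild type.

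Against the input, members lay both above and below it in each ChIP group. Both ratios share the single input library, so they are not independent, and there is no replicate check on the input. Of 186 members with at least 70 counts in all, the V5 mean was at least 2-fold above the input in 18 (9.68%, against 9.24% of 16736 genes) and at least 2-fold below in 13 (6.99%, against 8.86%). The wild-type mean was at least 2-fold above in 18 (9.68%, against 6.56%) and at least 2-fold below in 10 (5.38%, against 7.25%). All 6 ChIP libraries lay above the input in 26 members (14.0%, against 11.6%) and below it in 20 (10.8%, against 15.4%). The members' median log2 ratio to the input was 0.11 for V5 and 0.23 for wild type, against 0.04 and 0.00 over all genes.

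**Figure D4:**
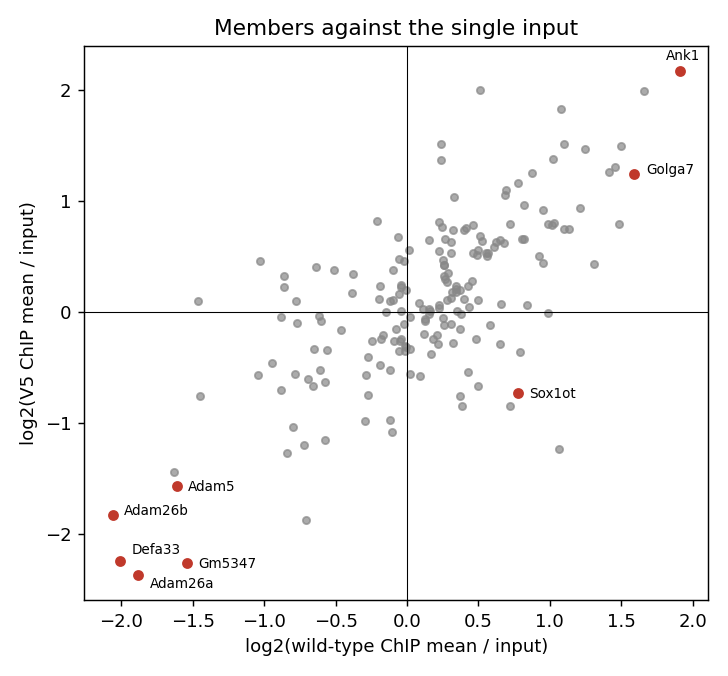
Log2 ratio of the mean V5 ChIP to the input against the log2 ratio of the mean wild-type ChIP to the input, 1 point for each of 186 members; the single input enters both axes, so the points share it. Ank1 lies at the top of both axes, at 2.17 and 1.91, and Adam26a, Adam26b, Defa33, Gm5347 and Adam5 lie low on both.

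At the low end stood Adam5, Adam26a, Adam26b, Defa33 and Gm5347, which were dense in the input, with 1.80 to 3.36 CPM per kb of gene. All but Defa33 were picked with these values in view. Adam5, next to the ADAM genes named above, had 725 counts in the input, 66 to 214 in V5 versus 86 to 144 in wild type, so that the ChIP libraries reached 0.277 to 0.418 of its input CPM. Adam26a had 99 counts in the input, against 8, 1 and 15 in V5 versus 8, 7 and 27 in wild type, and Adam26b had 82 against 9, 1 and 22 and 5, 5 and 21. Defa33 had 166 counts in the input, against 5, 6 and 58 and 16, 13 and 31. Gm5347, a predicted gene near Adam34, had 285 against 5, 16 and 98 and 39, 27 and 82. In all 5 genes every ChIP library, V5 and wild type, lay below the input in CPM, which the choice by low values favours. The same held in 15.4% of all genes with at least 70 counts. Gm15319, a predicted gene with 25539 bp, was the densest member in the input, with 7.86 CPM per kb, 6th of the 14225 genes of at least 10 kb, and had 2.86 to 5.48 CPM per kb in the ChIP libraries.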

How the data were processed

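Anti-V5 ChIP and input DNA of pharyngeal arches was sequenced in 7 libraries. The authors deposited whole-number read counts for each gene and a gene length in bp, per the file headers. Build mm10 and the tools MACS, featureCounts and bcl2fastq stand in the submitters' processing notes with no version or role. Which aligner was used, and how duplicates were handled, is not given in the sources used here. Gene identifiers were matched to RefSeq GRCm38.p6, the assembly mm10 stands for (25275 of 27179). The deposited length of 65.8% of members was within 1% of the RefSeq span, so introns appear to be counted for most. Of the members, 66 overlap another gene of the table (Ank1, Polb, Thsd1, Sgcz and Csmd1 among those named), so their counts are uncertain. The 7 files of single libraries were identical to the columns of the joint table. No libraries agreed within sampling noise (chi-square per degree of freedom of at least 4.03).

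V5 and wild type were compared in 1 fit over all genes using edgeR 4.0.16 under R 4.3.3 (TMM, minimum count 10 in filterByExpr, two-sided glmQLFTest after a robust glmQLFit, Benjamini-Hochberg, threshold 0.05). On simulated data the fit missed most 2-fold differences, so 0 calls do not show that members were unchanged. The alternatives used limma 3.58.1 and DESeq2 1.42.0. Standard errors were derived from the F statistic. CPM are counts over the library total times 1e6. Ratios to input used a prior count of 0.5. Distances run between nearest gene edges. Named genes were the 5 nearest tested members on each side, the 5 of smallest p per direction, the 5 with the highest mean CPM, up to 4 of each list and the leading defensins. Adam5, Adam26a, Adam26b, Gm5347 and Gm15319 are outside that rule: they were picked with their values in view, as were the 5 Mb stretches and the sums without Ank1. Members and lists were chosen with earlier results of these data known.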

Additional observations from a re-analysis of the deposited data

How the results depend on the processing

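The calls among the members were 0 in both directions under every alternative run except limma-voom, which called 1 lower. Medians of the log2 fold change were taken for the edgeR runs only, not for DESeq2 or limma-voom. They stayed negative in each, from -0.084 to -0.0033 over all tested members and from -0.15 to -0.032 within 2 Mb of Kat6a. The ratio of summed CPM over all members was 0.955 to 0.990 when single libraries were left out, and without wild-type replicate 3 the groups did not overlap. It was 1.01 without members over 300 kb, 0.955 without Ank1 and 0.969 without overlapping members, and in both of the latter settings the groups did not overlap either, as in sums over some other chromosomes. Within 2 Mb it ranged from 0.925 to 1.15 when single libraries were left out. The ratio from 5 to 10 Mb before Kat6a was 1.04 to 1.10 when single libraries were left out, 1.21 without members over 300 kb and 1.15 without overlapping members, and more than 10 Mb after Kat6a it was 0.831 to 0.880 when single libraries were left out, and 0.882 without members over 300 kb. Whether the replicate numbers pair the libraries is not known. Correlations of the deviations were 0.01 to 0.06 for same-numbered libraries and -0.05 to 0.02 for the others, which does not settle it. With the replicate number as a block in edgeR, 6 members higher and 4 lower had an unadjusted p under 0.05, as without it, and 0 were called. For single genes the cause was not tested. Leaving out single libraries, with the library number after V5 or wild-type, the range of log2 fold changes was Wrn -0.59 to 0.0067 (turned without V5 1), Rbpms -0.29 to 0.0079 (turned without V5 2), Fat1 -0.13 to 0.71 (turned without V5 1), Gas6 -0.044 to 0.86 (turned without V5 1), F10 -0.45 to 0.37 (turned without V5 1 or wild-type 3) and Adam34 -0.41 to 1.83 (turned without V5 1). It was Adam18 -0.011 to 0.52 (turned without V5 1), Adam32 -0.25 to 0.37 (turned without V5 1 or wild-type 1), Ap3m2 -0.12 to 0.40 (turned without V5 3), Ikbkb -0.31 to 0.49 (turned without V5 1 or V5 3 or wild-type 1), Polb -0.54 to 0.051 (turned without wild-type 1) and Vdac3 -0.53 to 0.34 (turned without V5 1 or V5 3 or wild-type 2). It was also Ank1 -0.088 to 0.54 (turned without V5 1 or wild-type 3), Sfrp1 -0.013 to 0.16 (turned without V5 1 or wild-type 3), Unc5d -0.0081 to 0.11 (turned without V5 1 or wild-type 3), Defa33 -0.95 to 0.12 (turned without V5 1 or V5 2) and Defb1 -0.76 to 1.51 (turned without V5 1 or wild-type 3). With limma-voom the sign turned in Plat (-0.056), F10 (0.11), Adam34 (-0.0026), Ikbkb (0.14), Csmd1 (-0.0020), Dlgap2 (-0.013) and Defa33 (0.057). With the replicate block the sign turned in Ikbkb (0.11). Of the 46 genes named with a fold change, 17 turned sign in at least 1 fit that left out a single library. In those fits 26 of the other 29 spanned more than 1.5 times between their lowest and highest values. Counting every alternative run, 20 of the 46 turned sign. V5 replicate 1 was the shallowest library, with 806648 counts, and the part of depth in these ranges was not tested.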
